A study of Mus musculus with 6 samples.

Results

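The 10 genes described here encode enzymes and activator proteins that make and break down ceramide, sphingomyelin and gangliosides. They were chosen by symbol for their roles in the pathway, as Asah1, Smpd1, Sgms1, Sgms2, Ugcg, B4galt5, B4galt6, St3gal5, Psap and Gm2a, and all 10 were found among the 15917 genes of the deposited table. The cells were of the mouse line bEnd.3, brain endothelium immortalised with the polyomavirus middle T antigen. Polyadenylated RNA was sequenced from 3 libraries with a control short hairpin RNA (shControl, replicates 1 to 3) and from 3 carrying an Npc1 hairpin (shNpc1, replicates 4 to 6). Groups follow the titles, although a second tag names the controls WT. The labels do not say whether replicates were separate cultures, whether they were clones or pools, or whether the 3 knockdown libraries share 1 hairpin sequence. The p-values therefore reflect the spread among these libraries, possibly technical.

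Ceramide is the hub of sphingolipid metabolism. In the Golgi it is turned into sphingomyelin by sphingomyelin synthases, or into glucosylceramide, then lactosylceramide and then GM3, the simplest ganglioside. Sphingolipids that reach the lysosome are taken apart again by acid hydrolases, some of which need small activator proteins to lift the lipid out of the membrane. Npc1 exports cholesterol from late endosomes and lysosomes, and its loss in Niemann-Pick disease type C is known to be accompanied by storage of sphingolipids as well as cholesterol.

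In the libraries with the Npc1 hairpin, 5 members rose and 3 fell at an adjusted p under 0.05 (limma on log2(FPKM + 1), Benjamini-Hochberg over the 10400 genes whose mean reached 1 FPKM). FPKM is a fragment count scaled by transcript length and library size. The lysosomal genes Asah1, Smpd1 and Psap rose, as did B4galt5 and St3gal5, which act at the lactosylceramide and GM3 steps. Ugcg and Sgms2, which act on ceramide in the Golgi or at the plasma membrane, fell. B4galt6, which acts at the same lactosylceramide step as B4galt5, fell too. Gm2a and Sgms1 did not pass. Of all genes tested, 12% rose and 5.89% fell, 17.9% in either direction, and the members were chosen with earlier results of these data known. The median log2 fold change was 0.30 over the members and 0.03 over all genes tested. In 9 of the 10 members the control and knockdown libraries did not overlap, 5 with the knockdown higher and 4 with it lower; of all genes tested, 27.4% and 16.1% were separated in these directions. RNA from whole cultures does not tell fewer expressing cells from less RNA per cell.

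**Figure D1:**
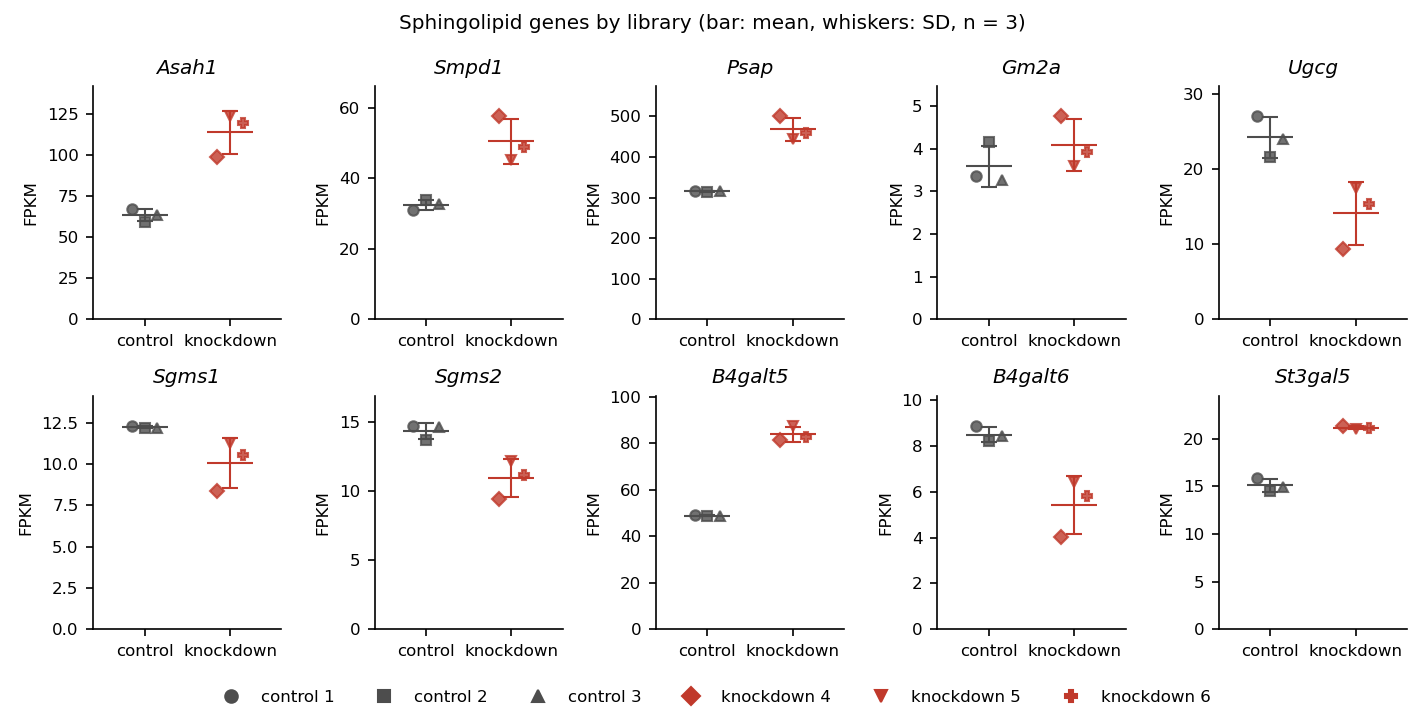
FPKM of each of the 10 genes in each library (points; one marker shape per library, y axes start at 0), with the mean and SD of the 3 libraries of a group. Asah1, Smpd1, Psap, B4galt5 and St3gal5 lie higher in all 3 knockdown libraries than in any control, Ugcg, Sgms1, Sgms2 and B4galt6 lie lower, and Gm2a overlaps.

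Npc1 itself had 6.31, 6.63 and 7.27 FPKM in the controls and 0.45, 1.20 and 0.97 FPKM in the knockdown, 13.0% ± 5.70 (SD, n = 3) of the control mean. An exact permutation test (two-sided) gave p = 0.1, and 3 against 3 libraries allow no smaller value. Of 10 endothelial marker genes, 8 had a mean of at least 1 FPKM, while Vwf was at 0.13 to 0.26 FPKM and Cldn5 was listed at 0 in all libraries but knockdown replicate 6, at 0.05 FPKM. Marker lists of pericytes, astrocytes, microglia, neurons, oligodendrocytes, fibroblasts and epithelium summed to between 0 and 1.39 FPKM in each library. The libraries were not equally alike. Knockdown replicate 4 deviated from its group mean by 0.231 on the log2 scale (root mean square over genes tested), against 0.177 and 0.102 in replicates 5 and 6 and 0.0681 to 0.0955 in the controls. Its deviations rose with transcript GC content (Spearman's rho across genes 0.73, a description), and those of replicates 5 and 6 fell with it (rho -0.67 and -0.59). Control replicates 1, 2 and 3 had rho of -0.45, 0.44 and 0.05. Deviations are taken from the group mean, so the values of libraries in 1 group are not independent. Knockdown replicate 4 was the library farthest from the others of its group in 8 of the 10 members and in 70.3% of all genes tested. Values without it and after a correction for GC content, which was chosen after seeing the data, are therefore given for each member. They are also given for some, not all, of the other genes where they bear on a call or a direction.

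Of the 4 lysosomal members 3 rose, all but Gm2a. Asah1 encodes acid ceramidase, which splits ceramide into sphingosine and a fatty acid. Its level was 67.34, 59.66 and 63.85 FPKM in control replicates 1, 2 and 3 and 99.29, 123.75 and 119.49 FPKM in knockdown replicates 4, 5 and 6. Every knockdown library lay above every control, and replicate 4 was the lowest of the knockdown libraries. Asah1 rose 1.79-fold, by 0.83 on the log2 scale (SE 0.10, limma adjusted p = 0.00340), at percentile 99.1 of all genes tested. Its change was larger both without replicate 4 (0.93 on the log2 scale) and after GC correction (0.98).

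Smpd1 encodes acid sphingomyelinase, which splits sphingomyelin into ceramide and phosphocholine. Control libraries held 30.95, 33.93 and 32.56 FPKM and knockdown libraries 57.53, 45.15 and 48.78 FPKM. The groups did not overlap, and here replicate 4 was the highest. Smpd1 rose 1.55-fold, by 0.61 on the log2 scale (SE 0.10, limma adjusted p = 0.00831). Its change was smaller without replicate 4 (0.52) and after GC correction (0.47). Without control replicate 1 or 3 its limma adjusted p was 0.0513 and 0.0510, and over the 18 alternatives it ran from 3.04e-07 to 0.0513. The low end, here and in the ranges of the other members below, came from a fit with sample weights that did not converge.

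Psap encodes prosaposin, the precursor that lysosomal proteases cut into the saposins, activators of several sphingolipid hydrolases. It was the most abundant member, with 316.14, 314.41 and 316.00 FPKM in the controls and 499.98, 444.68 and 460.12 FPKM in the knockdown. The controls differed from each other by less than 2 FPKM, and the knockdown libraries were all higher. Psap rose 1.48-fold, by 0.57 on the log2 scale (SE 0.07, limma adjusted p = 0.00331), and by 0.52 without replicate 4 and 0.44 after GC correction.

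Gm2a encodes the GM2 activator, which lifts GM2 ganglioside out of the membrane for its breakdown. It was the least abundant member, at 3.36, 4.15 and 3.28 FPKM in the controls and 4.76, 3.59 and 3.93 FPKM in the knockdown. The groups overlapped, and replicate 4 was the highest library. Its log2 fold change of 0.15 (95% interval -0.13 to 0.43, limma adjusted p = 0.405) leaves room for a fall or for a rise about as large as that of St3gal5. It was 0.05 without replicate 4 and 0.13 after GC correction.

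The Golgi members moved in both directions. Ugcg encodes glucosylceramide synthase, which commits ceramide to glycosphingolipids. Its level was 26.96, 21.62 and 23.95 FPKM in the controls and 9.39, 17.45 and 15.38 FPKM in the knockdown. All knockdown libraries were lower, replicate 4 by the most, at 38.8% of the control mean against 72.2% and 63.6% in replicates 5 and 6. Ugcg fell to a ratio of 0.582, or -0.78 on the log2 scale (SE 0.21, limma adjusted p = 0.0463), at percentile 1.27 of all genes tested. Without replicate 4 the log2 fold change was -0.53 (adjusted p = 0.00593) and after GC correction -0.63 (adjusted p = 0.00546), and the adjusted p ran from 7.94e-06 to 0.166 across the alternatives.

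B4galt5 and B4galt6 encode the lactosylceramide synthases, which add galactose to glucosylceramide. B4galt5 had 48.98, 48.78 and 48.58 FPKM in the controls and 81.41, 87.19 and 82.49 FPKM in the knockdown. Both groups were tight and far apart. B4galt5 rose 1.72-fold, by 0.77 on the log2 scale (SE 0.06, limma adjusted p = 0.000587), and had the smallest adjusted p of the members. Without replicate 4 the change was 0.79, and after GC correction it was smaller, 0.64. B4galt6, its less abundant paralog, had 8.87, 8.23 and 8.43 FPKM in the controls and 4.02, 6.42 and 5.84 FPKM in the knockdown. All knockdown libraries were lower, replicate 4 again by the most. B4galt6 fell to a ratio of 0.638, or -0.58 on the log2 scale (SE 0.15, limma adjusted p = 0.0367); without replicate 4 it was -0.42 (adjusted p = 0.00446) and after GC correction -0.53 (adjusted p = 0.00485; 5.46e-06 to 0.138 across the alternatives).

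The balance of the pair shifted towards B4galt5. The ratio of B4galt5 to B4galt6 was 5.52, 5.93 and 5.76 in the controls and 20.3, 13.6 and 14.1 in the knockdown, so B4galt5 made up 84.7% to 85.6% of the summed FPKM of the pair in the controls and 93.1% to 95.3% in the knockdown. The log2 ratio differed by 1.35 (SE 0.15; exact two-sided permutation p = 0.1, the smallest possible, 0.15 adjusted over 3 pairs), and by 1.20 without replicate 4. The plain ratios do not depend on a factor that scales all genes of a library alike. They can carry effects tied to GC content, which was 54.0% for B4galt5 and 46.2% for B4galt6. The tested difference has 1 FPKM added to each gene, and no other scaling was run for it. How the authors counted reads that match more than 1 gene is not given in the sources used here. Whether that bears on either pair of paralogs was not tested.

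**Figure D2:**
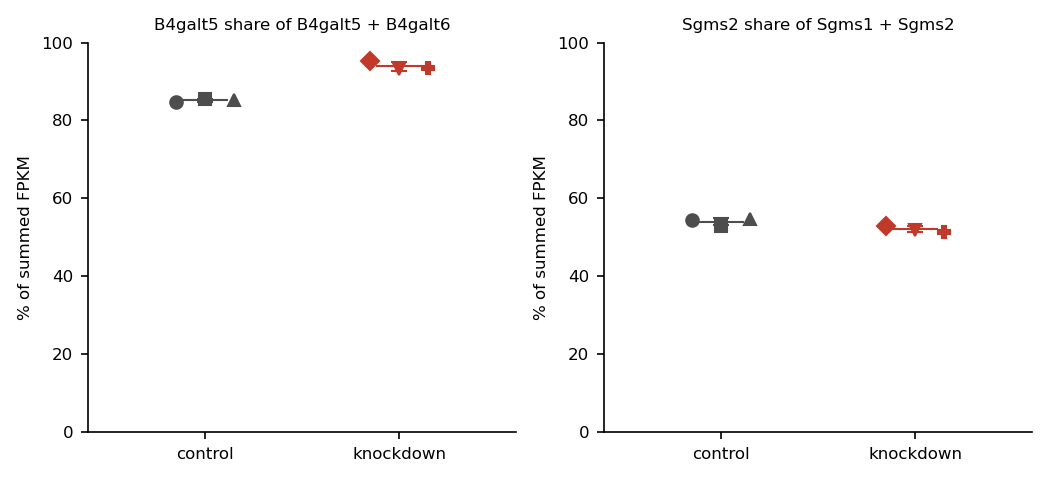
Share of the first paralog in the summed FPKM of its pair, in percent, for each library (points), with mean and SD of 3 libraries. The B4galt5 share is 84.7% to 85.6% in the controls and 93.1% to 95.3% in the knockdown, while the Sgms2 share stays between 51.4% and 54.6% in all 6 libraries.

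St3gal5 encodes GM3 synthase, which adds sialic acid to lactosylceramide. Its level was 15.87, 14.51 and 14.95 FPKM in the controls and 21.28, 21.00 and 21.14 FPKM in the knockdown. The knockdown libraries nearly coincided and were all higher. St3gal5 rose 1.40-fold, by 0.46 on the log2 scale (SE 0.06, limma adjusted p = 0.00529), the same 0.46 without replicate 4 and 0.35 after GC correction. The order of levels of St3gal5 and Ugcg, the last and the first step of GM3 synthesis among the members, was opposite in the groups: Ugcg was the higher in each control library and St3gal5 in each knockdown library.

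Sgms1 and Sgms2 encode the sphingomyelin synthases, Sgms1 in the Golgi and Sgms2 mainly at the plasma membrane. Sgms2 had 14.72, 13.74 and 14.69 FPKM in the controls and 9.47, 12.21 and 11.17 FPKM in the knockdown. The groups did not overlap. Sgms2 fell to a ratio of 0.761, or -0.37 on the log2 scale (SE 0.10, limma adjusted p = 0.0424); without replicate 4 it was -0.28 (adjusted p = 0.0163) and after GC correction -0.27 (adjusted p = 0.00796; 1.01e-05 to 0.158 across the alternatives). Sgms1 had 12.29, 12.19 and 12.21 FPKM in the controls and 8.38, 11.29 and 10.55 FPKM in the knockdown. These groups did not overlap either, yet the log2 fold change of -0.27 (95% interval -0.52 to -0.01) did not pass (limma adjusted p = 0.131), and it was -0.12 after GC correction and -0.15 without replicate 4 (adjusted p = 0.0917 without it; 0.000329 to 0.305 across the 18 alternatives). The log2 ratio of Sgms2 to Sgms1 was slightly lower in the knockdown (difference -0.10, SE 0.04, exact two-sided permutation p = 0.1, adjusted p = 0.15) with 1 FPKM added to each gene. Without that addition the groups overlapped, since Sgms2 made up 53.0% of the pair in control replicate 2 and 53.1% in knockdown replicate 4. The log2 ratio of Asah1 to Smpd1, the third pair compared, differed by 0.21 (SE 0.22, exact two-sided permutation p = 0.4, adjusted p = 0.4), and its groups overlapped.

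The falls lost their call under more alternatives than the rises. Asah1, Psap, B4galt5 and St3gal5 kept their call under all 18 alternatives, and Smpd1 under 16. Ugcg, B4galt6 and Sgms2 kept theirs under 12 each; the count of members that fell was 0 in the others. These were the fits without control replicate 1, 2 or 3, where 1.62%, 2.13% and 1.54% of all genes tested fell, without knockdown replicate 6 (2.38%), without the filter on low values (3.69%) and after scaling to TPM (4.16%). In TPM the members thus split into 5 that rose and 0 that fell. In direction, all 3 had a negative log2 fold change under each of the 18 alternatives. Without knockdown replicate 4, 5 members rose and 3 fell, against 18.3% and 10.1% of all genes tested, and after GC correction 5 and 3, against 13.5% and 11.8%. The transcripts of Ugcg, B4galt6, Sgms1 and Sgms2 had GC contents of 43.5% to 46.2%, those of Smpd1, Psap, B4galt5 and St3gal5 of 53.1% to 55.7%, and that of Asah1 43.5%.

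**Figure D3:**
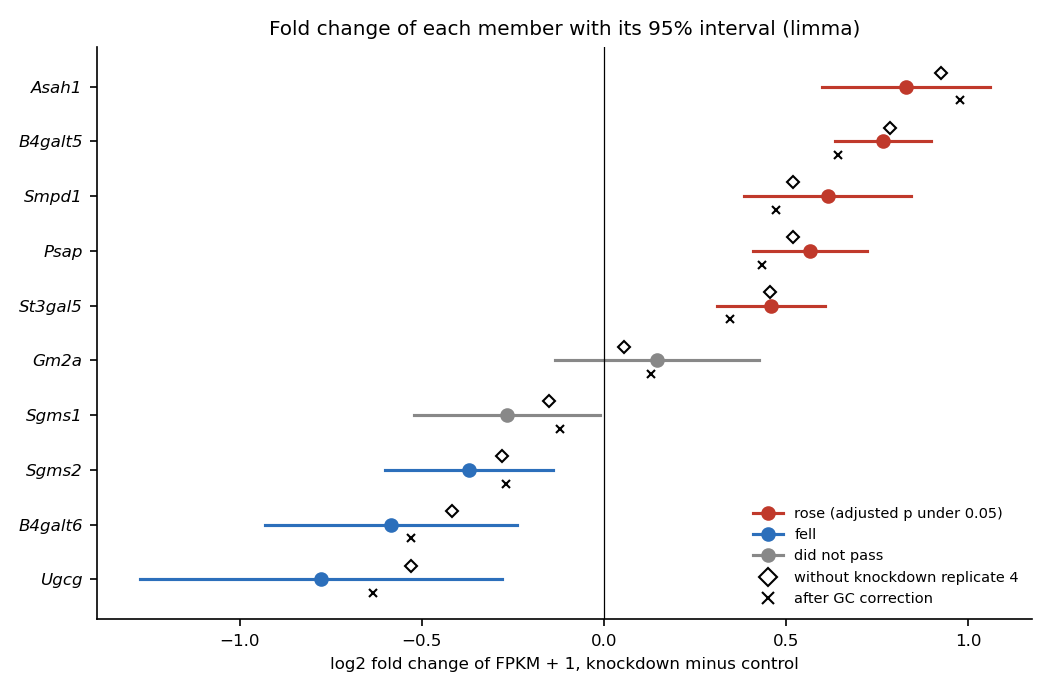
Log2 fold change (knockdown minus control, log2(FPKM + 1)) of each gene with its 95% limma interval; open diamonds leave out knockdown replicate 4 and crosses follow GC correction. Both alternatives move Ugcg, B4galt6, Sgms1 and Sgms2 towards 0 and none of the 10 genes changes side.

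In the authors' deposited table the same 8 members that passed in limma had a q-value under 0.05, 5 as higher and 3 as lower, where 12.1% of the 15917 genes did (6.48% higher and 5.60% lower). That share includes genes under the filter of 1 FPKM, which all 10 members passed. Of the 10400 genes tested, 992 were higher and 798 lower at this q-value. Its log2 ratios ran from -0.81 for Ugcg to 0.82 for Asah1. For the members that did not pass, the authors' deposited table gives Sgms1 q = 0.194 and Gm2a q = 0.693.

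FPKM is per length, so levels can be set side by side. In the controls the order was Psap, Asah1, B4galt5, Smpd1, Ugcg, St3gal5, Sgms2, Sgms1, B4galt6 and Gm2a, and of these neighbours St3gal5 and Sgms2 overlapped between libraries. Psap stood at percentile 96.9 of the control levels of all genes tested and Gm2a at percentile 14.7. In the knockdown St3gal5 moved ahead of Ugcg, the ranges of Ugcg, Sgms2 and Sgms1 overlapped, and so did those of B4galt6 and Gm2a.

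The promoters of 8 members were available from RefSeq (GRCm38.p6), as 17 windows of 250 bases before to 50 bases after a gene start; Asah1 and B4galt6 were not among them. Windows of 4 are shown because genes of the same pathway moved in opposite directions: B4galt5 and Smpd1 rose, while Ugcg and Sgms2 fell. Sgms2 has several windows, at different gene starts, and only 1 of them is shown, the only one with the E-box described below. Each is read 5′ to 3′ in the direction of transcription, and capitals mark the motifs found on either strand.
B4galt5, GRCm38.p6, chr2:167349129-167349428, minus strand: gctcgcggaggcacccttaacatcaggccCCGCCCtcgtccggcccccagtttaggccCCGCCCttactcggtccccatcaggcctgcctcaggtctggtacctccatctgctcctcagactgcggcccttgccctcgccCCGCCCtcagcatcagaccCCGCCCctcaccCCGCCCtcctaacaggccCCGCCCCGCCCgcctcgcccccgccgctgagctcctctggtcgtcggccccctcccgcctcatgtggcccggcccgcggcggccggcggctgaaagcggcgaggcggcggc
Smpd1, GRCm38.p6, chr7:105554110-105554409, plus strand: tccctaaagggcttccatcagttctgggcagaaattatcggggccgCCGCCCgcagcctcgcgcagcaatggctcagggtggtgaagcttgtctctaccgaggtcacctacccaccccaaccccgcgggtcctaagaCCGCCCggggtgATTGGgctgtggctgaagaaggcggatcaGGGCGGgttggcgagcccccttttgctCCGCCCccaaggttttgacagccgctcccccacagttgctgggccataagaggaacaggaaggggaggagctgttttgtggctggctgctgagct
Ugcg, GRCm38.p6, chr4:59189300-59189599, plus strand: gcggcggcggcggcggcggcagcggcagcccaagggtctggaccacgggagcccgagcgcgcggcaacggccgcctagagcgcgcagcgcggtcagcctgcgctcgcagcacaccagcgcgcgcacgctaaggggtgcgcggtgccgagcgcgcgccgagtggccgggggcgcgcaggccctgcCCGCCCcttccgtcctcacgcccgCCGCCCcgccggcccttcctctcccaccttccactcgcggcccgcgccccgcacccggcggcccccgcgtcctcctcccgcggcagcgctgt
Sgms2, GRCm38.p6, chr3:131488993-131489292, minus strand: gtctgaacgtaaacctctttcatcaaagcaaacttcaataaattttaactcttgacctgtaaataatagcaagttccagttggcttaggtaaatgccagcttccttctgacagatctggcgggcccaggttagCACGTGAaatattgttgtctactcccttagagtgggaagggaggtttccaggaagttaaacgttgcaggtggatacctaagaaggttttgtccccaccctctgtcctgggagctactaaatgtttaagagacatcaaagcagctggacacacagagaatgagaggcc

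The motifs searched were the GC box GGGCGG, the CCAAT box CCAAT, the E-box CACGTG, the longer TCACGTG, which contains the E-box and is the core of the CLEAR element of lysosomal genes, and TCACNCCAC, a form of the sterol regulatory element. The GC box occurred 7 times in the B4galt5 window, 4 times in that of Smpd1 and 2 times in that of Ugcg. In windows not shown, it occurred 5 times for Gm2a, which did not pass, and 2 times for St3gal5, which rose. It occurred 1 time in 1 window of Psap, which rose, and 4 times in 1 window of Sgms2, which fell. Whether its number goes with direction was not tested. It was in 11 of the 17 member windows, at least 1 for each of the 8 members, and 35.7% of all 32851 windows hold it. The CCAAT box, held by 37.4% of windows, was in 5 of the 17 member windows, among them an inverted copy at bases -101 to -97 of Smpd1. The E-box, held by 7.15% of windows, was found in 1 of the 17 member windows, at bases -117 to -112 of the Sgms2 window shown, where it was part of TCACGTG, held by 3.77%. The other Sgms2 windows lack it, and the window shown lacks the GC box. The sterol element form, held by 1.24%, was in none of the 17. A match is a run of letters and not a bound site, and windows of this length leave out most regulatory sequence.

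The rest of the pathway was read from 6 lists of 74 further genes, of which 63 were analysed and 45 had a mean of at least 1 FPKM. Of the 45, 16 rose and 0 fell in limma, against 12% and 5.89% of all genes tested, with a median log2 fold change of 0.12. At an unadjusted p under 0.05, 19 were higher and 3, Acer3, Sgpp1 and Neu3, lower, against 2278 and 1333 of all 10400 genes tested. By the authors' deposited table, 14 of the 45 had a q-value under 0.05 as higher and 1, Sgpp1, as lower (q = 0.0110). Of all 10400 genes tested, 992 had such a q-value as higher and 798 as lower. Of the 16, only 7, 8 and 6 still rose without control replicate 1, 2 or 3, and 11 without knockdown replicate 6, although all 16 had a positive log2 fold change under each of the 18 alternatives. In 8 of the 18, between 1 and 10 of these further genes fell.

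Of 9 tested genes of glycosphingolipid breakdown in the lysosome, 7 rose and 0 fell in limma, against 12% and 5.89% of all genes tested. Their median log2 fold change was 0.47, and 0 were lower at an unadjusted p under 0.05, against 1333 of all 10400 genes tested. Hexa, whose product acts on GM2 together with that of Gm2a, went from 107 ± 4.40 to 166 ± 19.9 FPKM (SD, n = 3 per group). Neu1, a sialidase, rose 1.71-fold and Gla, the alpha-galactosidase, 1.43-fold. Glb1, the beta-galactosidase, rose 1.29-fold and Scarb2, a lysosomal membrane protein, 1.20-fold. Galc, the galactosylceramidase, had a log2 fold change of 0.06 and Arsa, which removes sulfate from sulfatide, of 0.15, and neither passed. Scarb2 lost its call in 8 of the 18 alternatives. The count that rose was 3 without any one control replicate and 4 without knockdown replicate 6. Outside the lysosome, Gba2 (log2 -0.08) and Neu3 (log2 -0.26) did not pass; without knockdown replicate 5 Neu3 passed as lower (log2 -0.35, limma adjusted p = 0.0304), and after GC correction Gba2 did (log2 -0.23, limma adjusted p = 0.0441; 0.0178 to 0.891 across the alternatives).

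Of 12 tested genes of ceramide synthesis, the Ormdl regulators among them, 2 rose and 0 fell (median log2 fold change 0.07). These counts were near the background of 12% and 5.89%. The ceramide synthase gene Cers4 rose 1.58-fold, from 7.03 ± 0.428 to 11.1 ± 0.399 FPKM, and Ormdl3, a brake on serine palmitoyltransferase, rose 1.51-fold. Ceramide synthases of higher level did not pass, Cers2 at 151 ± 3.22 and 150 ± 5.59 FPKM and Cers5 at 96.3 ± 0.484 and 105 ± 9.59 FPKM (SD, n = 3 per group). Degs1, the desaturase of the last step, stood at 531 ± 9.88 and 567 ± 13.2 FPKM (log2 0.09, limma adjusted p = 0.295). Ormdl3 lost its call without any one control replicate (limma adjusted p of 0.0628, 0.0547 and 0.0503 without replicates 1, 2 and 3; 8.81e-06 to 0.0628 across the alternatives).

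Of 9 genes of ceramide transfer and sphingomyelin turnover, 3 rose and 0 fell, against 12% and 5.89% of all genes tested. Cerk, the ceramide kinase, rose 1.39-fold, Gltp, a glycolipid transfer protein, 1.31-fold and Smpd2, a neutral sphingomyelinase, 1.32-fold. The log2 fold change of Smpd2 was 0.36, and 0.22 after GC correction. Smpd2 lost its call without any one control replicate or knockdown replicate 6, without the filter, with robust estimation and with median, trimmed mean or quantile scaling. Gltp lost it without any one control replicate and Cerk without control replicate 3. Cert1, which carries ceramide to the Golgi for sphingomyelin synthesis, was at 9.54, 8.43 and 9.56 FPKM in the controls and 4.55, 8.79 and 7.33 FPKM in the knockdown; the groups overlapped and it did not pass (log2 -0.40, limma adjusted p = 0.198; log2 -0.17 without replicate 4 and -0.21 after GC correction). Samd8, a relative of the sphingomyelin synthases, had a log2 fold change of -0.13 and Smpd4 of 0.08, and neither passed. Their directions were not stable, since Samd8 was at 0.07 without replicate 4 and 0.08 after GC correction, and Smpd4 at -0.0047 after GC correction.

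Of 8 genes of other ceramidases and of sphingosine 1-phosphate, 2 rose and 0 fell, against 12% and 5.89% of all genes tested. These are too few genes to compare shares. Sgpl1, the lyase that ends sphingolipid breakdown, went from 18.5 ± 0.360 to 26.4 ± 0.605 FPKM, 1.43-fold higher (log2 0.49, SE 0.06, limma adjusted p = 0.00342). Sphk2, a sphingosine kinase, rose 1.33-fold (log2 0.38, and 0.21 after GC correction), a call lost without any one control replicate or knockdown replicate 6, without the filter and with median or quantile scaling. The other ceramidases tested did not pass, Asah2 with a log2 fold change of -0.17 and Acer3 of -0.30. Without replicate 4 and after GC correction Asah2 was at 0.06 and 0.02, with its direction changed, and Acer3 at -0.17 and -0.07. Sgpp1, a sphingosine 1-phosphate phosphatase, was just short of the threshold at 5.28 ± 0.0814 and 3.50 ± 0.817 FPKM (log2 -0.50, limma adjusted p = 0.0505), and passed as lower without replicate 4 (adjusted p = 0.00911) and after GC correction (adjusted p = 0.00903; 5.23e-05 to 0.164 across the alternatives). S1pr1, the main endothelial receptor for sphingosine 1-phosphate, stood at 247 ± 2.59 and 227 ± 11.0 FPKM and did not pass (log2 -0.12, limma adjusted p = 0.206).

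Most genes of the steps beyond GM3 and of other glycosphingolipid branches had a mean under 1 FPKM. Of 13 analysed genes of complex glycosphingolipid synthesis, 5 were tested, of which 2 rose (12% of all genes tested did), the sialyltransferase genes St3gal3 (1.73-fold) and St3gal1 (1.51-fold). These also act on glycoproteins. St3gal3 lost its call without control replicate 1 (limma adjusted p = 0.0643) or 3 (0.0660), with 1.22e-06 to 0.0660 across the alternatives. B4galnt1, which makes GM2 from GM3, was listed at 0 in all libraries but knockdown replicate 6, at 0.06 FPKM, and St8sia1, which makes GD3, at 0.02 to 0.03 FPKM in all 6. A4galt, which makes globotriaosylceramide, was listed at 0 in all libraries but knockdown replicate 6, at 0.04 FPKM.

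**Figure D4:**
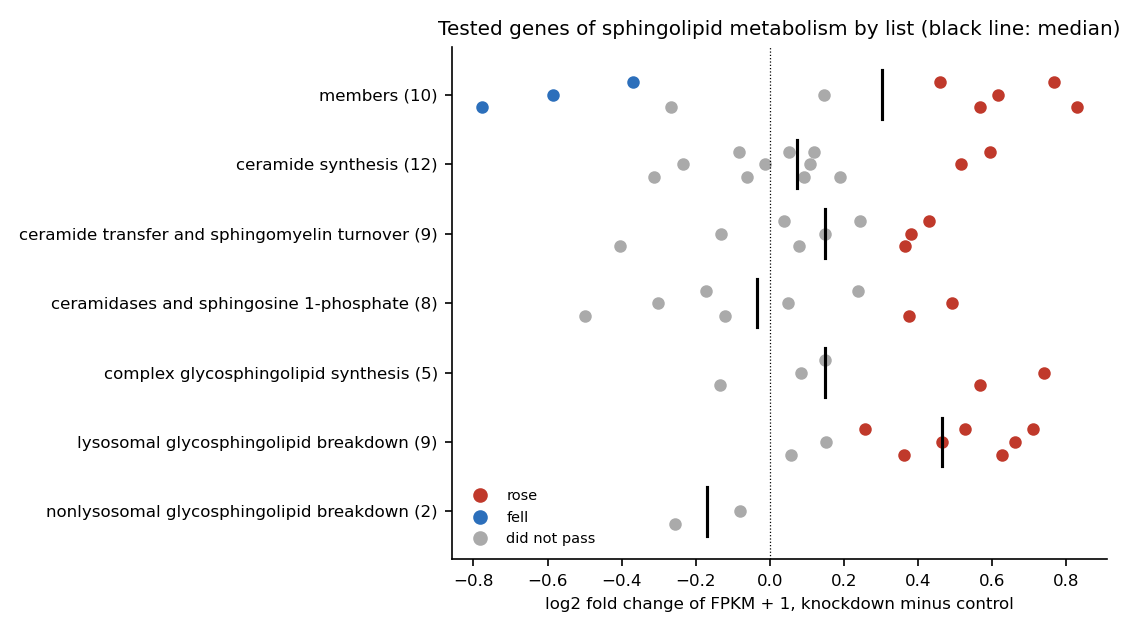
Log2 fold change (knockdown minus control, log2(FPKM + 1)) of every tested gene of the 10 members and of the 6 other lists, with the number tested in brackets and the median as a black line. The 9 lysosomal breakdown genes all lie above 0, and the 3 genes that fell in this fit are members; other sphingolipid genes fell in 8 of the 18 alternatives.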

How the data were processed

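Polyadenylated RNA was sequenced from DNA nanoballs, per the labels' protocols. The authors deposited FPKM per gene, rounded to 2 decimals, with their own log2 ratio, p-value and q-value, per the file headers. The aligner, counting program, build, annotation and test are not given in the sources, so strand and multi-mapped reads are unsettled. No counts were used and the depth is unknown; library sums ran from 661950 to 757026 FPKM, and 13777 to 14146 genes were above 0.

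Values were analysed as log2(FPKM + 1), a scale that understates the change of low genes, keeping the 10400 genes whose mean reached 1 FPKM; all 10 members passed this filter. The test was limma 3.58.1 (R 4.3.3, intensity trend, two-sided, Benjamini-Hochberg, threshold 0.05), checked on simulated data. Ratios are of mean FPKM. Ratios between paired members, on log2((FPKM + 1)/(FPKM + 1)), and Npc1 had exact permutation tests. The members, lists and tests were chosen with earlier results of these data known. Named genes are Npc1, the members, up to 6 genes of each list that passed and paralogs of members; Scarb2, Galc, Arsa, Neu3, Degs1, Cert1, Asah2 and Sgpp1 were chosen after their values were seen. Some genes that the rule names are counted but not reported here by name. Alternatives were other pseudocounts, filters, scalings (TPM, median, unweighted trimmed mean of M values, quantiles) and limma settings, and each library left out. A GC correction was added after seeing the data: a spline with 5 degrees of freedom on GC content of the longest GENCODE M21 coding transcript (98.5% of tested genes had a value).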

Additional observations from a re-analysis of the deposited data

How the results depend on the processing

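No paired analysis was possible because the groups share no replicate numbers. No member reversed its direction under any of the 18 alternatives. Asah1, Psap, B4galt5 and St3gal5 kept their call in all of them, and Npc1 too, with log2 fold changes of -2.90 to -1.89. Members that fell numbered 0 with no filter and with TPM, and 0 to 3 with each library left out, against 3; those that rose numbered 4 or 5 with a library left out. Other sphingolipid genes that rose, 16 at first, numbered 27 with sample weights and 6 to 18 with a library left out. Those that fell numbered 1 with median centring, quantiles, no trend or trimmed mean of M values (TMM), 10 with sample weights, 3 with the GC correction, and 0 to 2 with a library left out. Over all genes, 1251 rose and 613 fell; 1404 and 433 did with TPM, 959 and 753 with TMM, 844 and 755 with median centring, 4165 and 3186 with sample weights and 1379 and 1210 with GC correction. With a library left out, 309 to 1907 rose and 160 to 1082 fell. The estimation of sample weights stopped before it converged, so its counts and adjusted p-values carry little weight. That fit gave the low end of the adjusted p ranges of the members and of Ormdl3. The ranges given for Gba2, St3gal3 and Sgpp1 include that fit too. The difference in log2 ratio of B4galt5 to B4galt6 was 1.20 to 1.44 over its alternatives, that of Sgms2 to Sgms1 -0.13 to -0.09 and that of Asah1 to Smpd1 0.08 to 0.41. The depth is unknown, which limits the least abundant member, Gm2a. The causes of these changes were not tested.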
